A study of Mus musculus with 8 samples.

Results

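The mouse mitochondrial genome holds 37 genes, and all 37 were found among the 56748 genes of the deposited table as the rows whose Ensembl identifier maps to a symbol starting with mt-. They comprise 13 messenger RNAs, 2 ribosomal RNAs and 22 transfer RNAs. They were compared between 4 libraries of TgCRND8 transgenic mice (Tg), which overexpress the amyloid precursor protein App, and 4 libraries of their non-transgenic littermates (NTg), all from forebrain at 18 months of age. TgCRND8 is a model of amyloid deposition in which the transgene is a mutant human App cDNA driven by the hamster prion protein promoter. It thus models high expression of a mutant human App rather than a change at the mouse gene. The mice were bred in house. From each brain a snap-frozen hemibrain was pulverised, its forebrain RNA was made into unstranded poly(A) libraries, and paired reads of 75 bases were sequenced in pools. The labels number the replicates but do not state that each library came from a separate mouse, so the p-values measure the spread between these libraries, which may be partly technical.

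Mitochondrial DNA is transcribed from both strands into long precursors that span most of the circle. The transfer RNAs lie between the other genes and are cut out by RNase P and Elac2, which frees the messengers and ribosomal RNAs on either side. The messengers encode core subunits of respiratory complexes I, III and IV and of the ATP synthase, whose other subunits are encoded in the nucleus, as is the whole of complex II. Most mitochondrial messengers and the ribosomal RNAs carry short poly(A) tails made by Mtpap, while mature transfer RNAs end in CCA and have no such tail, and in human cells the messenger of ND6 also lacks a stable one. Neurons depend strongly on this respiratory chain for the ATP that ion pumps and synapses use.

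In these data, no mitochondrially encoded gene was shown to differ between Tg and NTg libraries beyond the spread between libraries. Of the 37 genes, 27 had enough counts to be tested (13 messenger, 2 ribosomal and 12 transfer RNAs). None was called by edgeR's quasi-likelihood test with Benjamini-Hochberg adjustment at 0.05, where 0.0139% of all 21588 tested genes were called, and the smallest adjusted p among the 27 was 0.833. At an unadjusted p under 0.05, 0 of the 27 passed, against 7.36% of all tested genes. DESeq2 also called 0 members, against 0.87% of 39666 genes. The Tg and NTg libraries overlapped for all 27 tested members, whereas they did not overlap for 4.2% of all tested genes. App, the check on the genotype labels, had 2531, 2932, 2978 and 2956 CPM in Tg libraries, against 1622, 1485, 1451 and 1389 CPM in NTg libraries. Its log2 fold change was 0.94 (SE 0.07), with an edgeR adjusted p of 0.00146. These are counts at the mouse App gene, where reads of the human transgene and of mouse App were not told apart.

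As a percentage of all counts in a library, mitochondrially encoded RNA took 7.17%, 6.74%, 6.78% and 6.45% in Tg libraries, against 6.09%, 6.86%, 7.21% and 7.99% in NTg libraries. The share was 6.78% ± 0.296 in Tg libraries and 7.04% ± 0.789 in NTg libraries (SD, n = 4 each), and an exact two-sided permutation test gave p = 0.543. The lowest and the highest library were both NTg, replicate 1 and replicate 4, and the 4 Tg libraries lay between them. Nuclear copies of mitochondrial genes, described below, held 2.89% to 3.48% of a library. The shares of all members and of the messengers may depend on how reads that fit both were assigned. Library totals ran from 57129090 to 65242741 counts, and messenger counts alone from 3471899 to 4393213 per library, so counting error is small beside the spread between libraries. In bulk tissue, fewer cells of a type and less RNA per cell cannot be told apart.

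The messengers made up nearly all of these counts, with shares of the library total of 6.73%, 6.24%, 6.34% and 6.05% in Tg libraries, against 5.74%, 6.45%, 6.82% and 7.23% in NTg libraries. As these are poly(A) libraries, the balance of messenger, ribosomal and transfer RNA counts need not be that in the tissue. Their share was 6.34% ± 0.288 in Tg libraries and 6.56% ± 0.632 in NTg libraries (SD, n = 4 each; exact permutation p = 0.571). The ribosomal RNAs had shares of 0.424%, 0.487%, 0.437% and 0.388% in Tg libraries, against 0.341%, 0.411%, 0.380% and 0.751% in NTg libraries. NTg replicate 4 stood far above every other library in this class, and the other 7 libraries lay between 0.341% and 0.487%. The ribosomal share was 0.434% ± 0.0408 in Tg libraries and 0.471% ± 0.189 in NTg libraries (SD, n = 4 each; exact permutation p = 0.971). Without NTg replicate 4 the NTg mean was 0.377% ± 0.0349 (SD, n = 3), below the Tg mean, with an exact permutation p of 0.114, where 0.0571 is the smallest that 4 against 3 libraries allow. The transfer RNAs took 0.00856% ± 0.00118 in Tg libraries and 0.00808% ± 0.00237 in NTg libraries (SD, n = 4 each; exact permutation p = 0.743). Adjusted over these 4 shares, every p was 0.971, and the smallest p that 4 against 4 libraries allow is 0.0286.

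**Figure D1:**
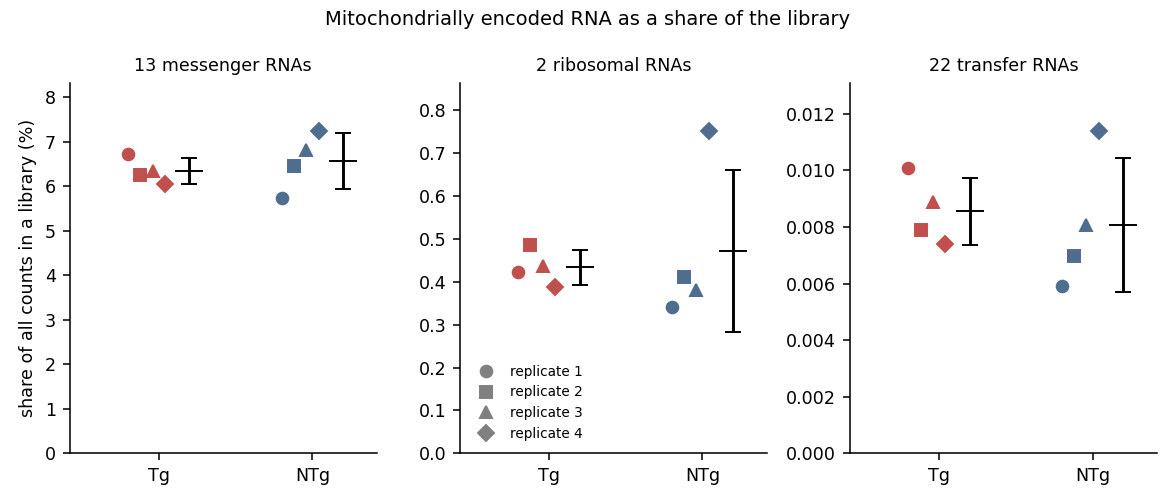
Share of all counts in a library (%, linear axes from 0) held by the 13 messenger RNAs, the 2 ribosomal RNAs and the 22 transfer RNAs, with each symbol a library, Tg in red on the left and NTg in blue on the right, and bars the mean ± SD of 4 libraries. NTg replicate 4 is the highest library in each panel, at 0.751% for ribosomal RNA, while the Tg libraries overlap the other NTg libraries.

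Near-identical nuclear copies bear on the counts of 7 of the 13 messengers. The nuclear genome holds pseudogenes copied from mitochondrial DNA, and several match a messenger base for base. The opening bases of mt-Co3 (chrM:8607-9390, plus strand) and of its copy Gm28437, an unprocessed pseudogene on chromosome 1, are identical, and those of mt-Nd3 (chrM:9459-9806, plus strand) and its copy Gm28438 on the same chromosome differ at the base in capitals, T3C when counted from the start of mt-Nd3 with the mitochondrial base given before the position. The sequences are shown because they show how little a read of 75 bases has to tell the members of such a pair apart (GENCODE M21 transcripts on build GRCm38, 5′ to 3′).
mt-Co3: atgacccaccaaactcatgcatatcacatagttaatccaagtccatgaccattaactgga
Gm28437: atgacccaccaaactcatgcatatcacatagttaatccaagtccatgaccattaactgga
mt-Nd3: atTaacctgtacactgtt
Gm28438: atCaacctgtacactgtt

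A search of all annotated transcripts with blastn (at least 75 aligned bases at 95% identity or more) found 11 nuclear copies with a row in the table. Gm28437 was identical to mt-Co3 over 783 bases and held 1.0009 to 1.0016 counts for each count of mt-Co3 in every library. In Tg replicate 1, for example, Gm28437 had 448713 counts and mt-Co3 had 447990. Gm28661 was identical to mt-Co2 over 681 bases, with 1.0023 to 1.0039 counts per count of mt-Co2. Gm28438 matched mt-Nd3 at 99.71% over 345 bases, with 1.0432 to 1.0654 counts per count of mt-Nd3. Gm10222 was identical to mt-Nd4l over 294 bases and held 516725 counts over all libraries, against 509040 for mt-Nd4l. These 4 copies therefore carried almost the same number as the mitochondrial gene in each case.

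The other copies departed from equality. Gm10925, identical to mt-Atp6 over 678 bases, held 1.3366 to 1.3639 counts per count of mt-Atp6, a gene that itself shares 43 bases with mt-Atp8. Gm28439 matched 876 bases of mt-Nd4 and held 0.5186 to 0.5546 counts per count of it, and Gm29216 matched 483 bases of mt-Co1 with 1 mismatch and held 0.3145 to 0.3361. Copies with more mismatches carried few counts. Gm13340, at 97.605% identity over 1545 bases, had 2.29% of the counts of mt-Co1, Gm13341 had 5.02% of those of mt-Co2, Gm13339 had 0.85% of those of mt-Nd2, and Gm4076 had 0.01% of those of mt-Nd5. The share of library totals held by the 11 copies was 2.98% to 3.29% in Tg libraries and 2.89% to 3.48% in NTg libraries. How reads that fit several loci were assigned is not stated in the labels, so reads of a messenger and of its copy cannot be told apart, and whether the same reads entered a library total at both loci was not tested. For the 6 copies tested as a list, log2 fold changes ran from -0.11 to -0.03, with 0 called.

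**Figure D2:**
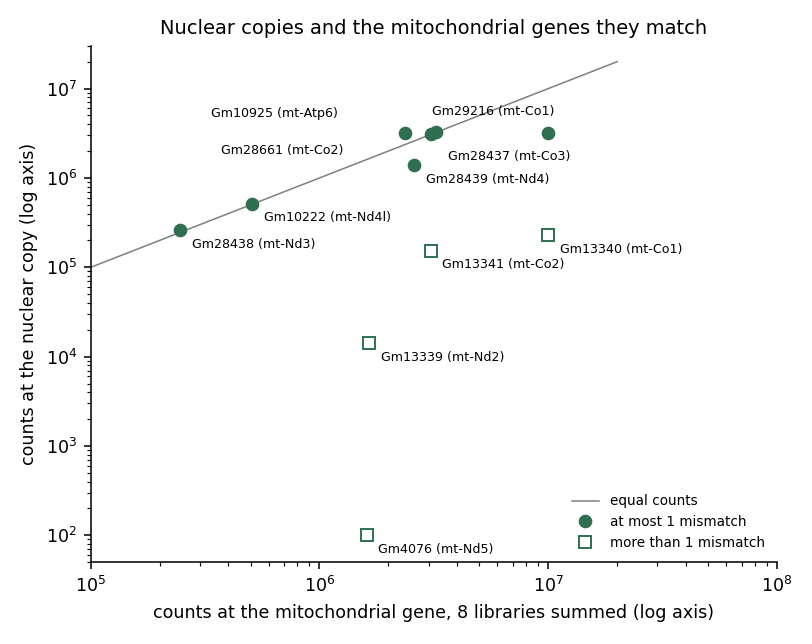
Counts at 11 nuclear copies against counts at the mitochondrial gene each matches, summed over 8 libraries on log axes, with filled circles for copies with at most 1 mismatch, open squares for the others, and a line at equal counts. Gm28437, Gm28661, Gm10222 and Gm28438 lie close to the line, and the copies with more than 1 mismatch lie far below it.

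Complex I takes electrons from NADH and pumps protons, and its membrane arm holds all 7 mitochondrially encoded subunits. Together their messengers had 18908, 17370.1, 17829 and 16962 CPM in Tg libraries, against 16458, 17765, 19366 and 22542 CPM in NTg libraries. NTg replicate 4 was the highest library and NTg replicate 1 the lowest.

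mt-Nd1, a subunit beside the ubiquinone-binding cavity, had 3821, 3729.6, 3614 and 3633 CPM in Tg libraries, against 3633, 3852, 3941 and 4669.9 CPM in NTg libraries. Its log2 fold change, Tg over NTg, was -0.12 (SE 0.08), with the smallest unadjusted p of any member, 0.143 (adjusted p = 0.833). The groups overlapped, since NTg replicate 1 lay among the Tg libraries. mt-Nd2, an antiporter-like pump subunit, had 3368, 3252, 3419 and 3181 CPM in Tg libraries, against 3172, 3399, 3646 and 4161 CPM in NTg libraries, a log2 fold change of -0.12 (SE 0.08). mt-Nd4 and mt-Nd5 are the other antiporter-like subunits. mt-Nd4 had 5580.5, 5265, 5346 and 5014 CPM in Tg libraries, against 4853, 5137, 5647 and 6288 CPM in NTg libraries, and its log2 fold change was -0.05 (SE 0.08). mt-Nd5 had 3709, 2932, 3159.9 and 2997 CPM in Tg libraries, against 2764, 3156, 3705 and 4426 CPM in NTg libraries, with a log2 fold change of -0.13 (SE 0.14), the lowest value among the messengers. Tg replicate 1 had the highest mt-Nd5 level of the Tg libraries and exceeded 3 of the 4 NTg libraries.

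mt-Nd4l, a small subunit whose messenger is joined to that of mt-Nd4 and overlaps it by 7 bases, had 1117, 937, 1025 and 1042 CPM in Tg libraries, against 943, 1015, 1190.4 and 1226 CPM in NTg libraries, and its log2 fold change was -0.09 (SE 0.09). mt-Nd3, a small subunit near the junction of the membrane and peripheral arms, had 505, 509.9, 527 and 433 CPM in Tg libraries, against 461, 480.3, 461 and 734 CPM in NTg libraries. NTg replicate 4 was far above the other NTg libraries, which lay within the Tg range, and the log2 fold change was -0.11 (SE 0.15). mt-Nd6 is the only messenger encoded on the minority strand, and 14 of its bases lie opposite mt-Nd5. It had 808, 744, 738 and 662 CPM in Tg libraries, against 632, 727, 775 and 1037 CPM in NTg libraries, with a log2 fold change of -0.10 (SE 0.13). Since strand was not recorded, counts at mt-Nd6 may include reads of the precursor from the opposite strand.

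Complex III passes electrons from ubiquinol to cytochrome c, and mt-Cytb is its mitochondrially encoded subunit. It had 5913, 5676, 5433 and 5431 CPM in Tg libraries, against 4856, 5674, 6248 and 6513 CPM in NTg libraries, with a log2 fold change of -0.05 (SE 0.09). Complex IV reduces oxygen to water. mt-Co1, which holds its catalytic centre, was the most abundant member, with 21699, 19401, 20668 and 19314 CPM in Tg libraries, against 17919, 21507, 23317 and 22865 CPM in NTg libraries. Its log2 fold change was -0.08 (SE 0.09) with a 95% interval of -0.27 to 0.11. The order of the libraries differed here, with NTg replicate 3 highest and replicate 4 next. mt-Co2, which accepts electrons from cytochrome c, had 6529, 6347, 6224 and 5931 CPM in Tg libraries, against 5838, 6498, 6789 and 6959 CPM in NTg libraries, and its log2 fold change was -0.06 (SE 0.06). mt-Co3, the remaining core subunit, had 6757, 6552, 6714 and 6220.0 CPM in Tg libraries, against 6288, 6823, 6880.4 and 7763 CPM in NTg libraries, and its log2 fold change was -0.08 (SE 0.07).

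The ATP synthase uses the proton gradient to make ATP. mt-Atp6 forms part of its proton channel and had 4958, 5032, 4987 and 4603 CPM in Tg libraries, against 4542, 4993, 5142 and 5350.5 CPM in NTg libraries, with a log2 fold change of -0.03 (SE 0.06). mt-Atp8, a small subunit of the membrane part whose frame overlaps that of mt-Atp6, had 1499.7, 1479.8, 1562 and 1459 CPM in Tg libraries, against 1398, 1389.8, 1482 and 1747 CPM in NTg libraries. Its log2 fold change was -0.00384 (SE 0.08), the closest to 0 of the 13. mt-Atp8 averaged 1500.1 ± 44.3 CPM in Tg libraries and 1504 ± 167 CPM in NTg libraries.

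All 13 messengers had a negative log2 fold change, from -0.13 to -0.004, with a median of -0.08 against -0.0024 for all tested genes. The 95% intervals of the 13 together reached from -0.44 to 0.22, and each contained 0. The NTg libraries were the more variable ones, with a larger SD than the Tg libraries for all 13 messengers and for 26 of the 27 tested members. NTg replicate 4 was the highest library for 12 of the 13 messengers and for both ribosomal RNAs, and NTg replicate 1 was the lowest for 8 of the 13 and for both ribosomal RNAs. The uniform direction rested on NTg replicate 4. Without it, 6 messengers had a positive and 7 a negative log2 fold change, with a median of -0.003 and a range of -0.04 to 0.08. Without NTg replicate 1, the median was -0.15. In that edgeR fit mt-Nd2 and mt-Co1 had unadjusted p of 0.0417 and 0.0372, with adjusted p of 0.651 and 0.628. They were 2 of the 27 tested members under 0.05, where 1577 of all 21910 tested genes passed, a similar share.

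**Figure D3:**
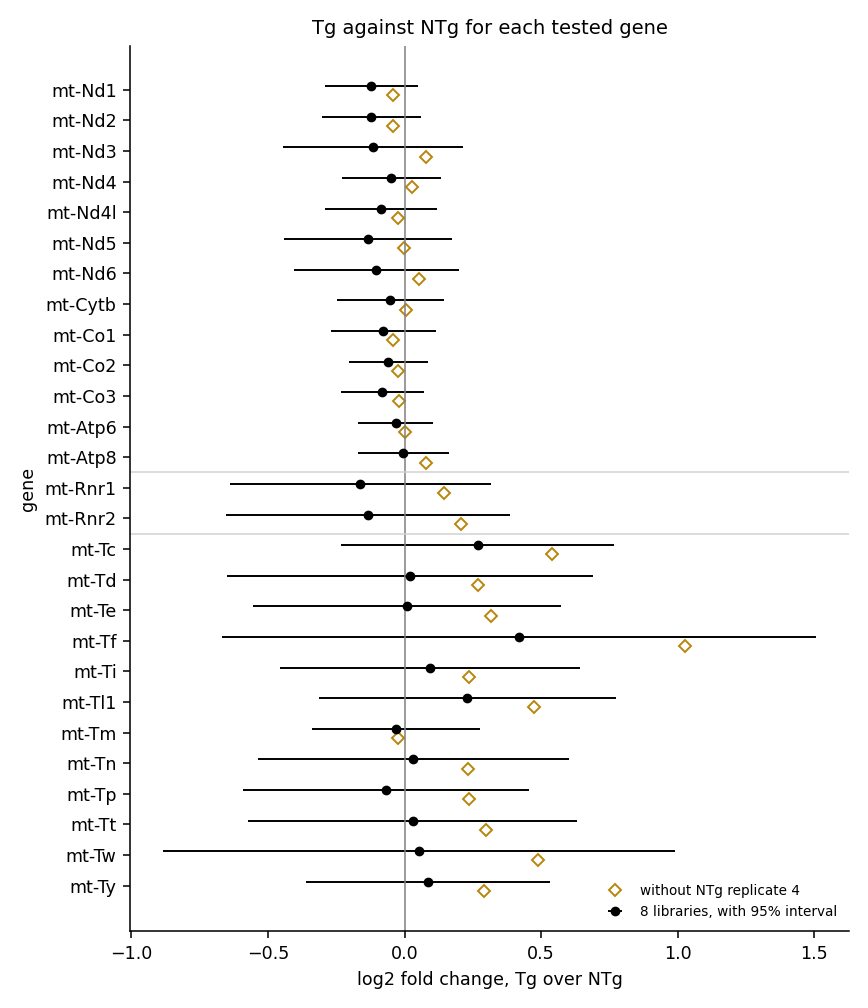
Log2 fold change, Tg over NTg, for the 27 tested genes, with black points and bars for the edgeR estimate and its 95% interval in 8 libraries and open diamonds for the estimate without NTg replicate 4, in blocks of messenger, ribosomal and transfer RNA. Every interval contains 0, and both ribosomal RNAs change sign without NTg replicate 4.

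mt-Co1, the most abundant messenger, held 32.2% ± 0.619 of messenger counts in Tg libraries and 32.3% ± 1.36 in NTg libraries, and mt-Nd3, the least abundant, held 0.785% ± 0.0518 in Tg libraries and 0.802% ± 0.141 in NTg libraries (SD, n = 4 each). These shares differed between genotypes by less than 1 SD. On the scale of CPM per kilobase of transcript, the mean over all libraries was 13486 for mt-Co1, 9341 for mt-Co2, 8609 for mt-Co3, 7363 for mt-Atp8, 7270.1 for mt-Atp6 and 4998 for mt-Cytb. Among the complex I messengers the levels were lower, with 4035 for mt-Nd1, 3912 for mt-Nd4, 3575 for mt-Nd4l, 3323 for mt-Nd2, 1840.0 for mt-Nd5, 1477 for mt-Nd3 and 1475 for mt-Nd6. On this scale the highest messenger, mt-Co1, thus had 9.15 times the level of the lowest, mt-Nd6. Of the 14 neighbouring pairs in this order, ribosomal RNAs included, 10 kept the same order in all 8 libraries, while mt-Atp8 and mt-Atp6, mt-Nd1 and mt-Nd4, mt-Nd5 and mt-Rnr2, and mt-Nd3 and mt-Nd6 changed places between libraries. Levels of the genes with nuclear copies may depend on how shared reads were assigned. The places of the ribosomal RNAs in this order hold for counts of poly(A) libraries alone.

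For ratios within a library, which do not depend on its total, no difference between genotypes was shown either, and the groups overlapped in each. The log2 ratio of complex I to complex IV messengers was -0.90 ± 0.01 in Tg libraries and -0.88 ± 0.10 in NTg libraries (SD, n = 4 each; exact permutation p = 0.80). The log2 ratio of mt-Nd6 to the other messengers was -6.40 ± 0.06 in Tg libraries and -6.39 ± 0.17 in NTg libraries (exact permutation p = 0.943). NTg replicate 4 had the highest ratio for mt-Nd6, -6.13, and the other NTg libraries lay close together at a mean of -6.47 ± 0.01 (SD, n = 3). For 9 such ratios, p ran from 0.171 upward and every adjusted p was 1.

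The ribosomal RNAs showed the widest spread of the abundant members, through NTg replicate 4. mt-Rnr1, the 12S RNA of the small subunit of the mitochondrial ribosome, had 1477, 1742, 1592 and 1408 CPM in Tg libraries, against 1272, 1537, 1417 and 2734 CPM in NTg libraries. mt-Rnr2, the 16S RNA of the large subunit, had 2692, 3083, 2784 and 2439 CPM in Tg libraries, against 2132, 2584, 2436 and 4920.4 CPM in NTg libraries. In NTg replicate 4 the sum of both was 2.02 times the mean of the other 3 NTg libraries, against 1.16 times for the messengers and 1.65 times for the transfer RNAs. The log2 fold change was -0.16 (SE 0.21) for mt-Rnr1 and -0.13 (SE 0.23) for mt-Rnr2, with adjusted p of 0.945 and 0.967. Without NTg replicate 4 both turned positive, at 0.14 and 0.21, with an adjusted p of at least 0.540. The 2 genes moved together, and the log2 ratio of mt-Rnr1 to mt-Rnr2 was -0.82 ± 0.03 in Tg libraries and -0.78 ± 0.05 in NTg libraries (SD, n = 4 each; exact permutation p = 0.171). Without NTg replicate 4 that difference was -0.06 with an exact permutation p of 0.0571, the smallest this design allows.

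NTg replicate 4 was also the highest library for several other values. Lars2, which charges the mitochondrial transfer RNA for leucine, had 151, 534, 148 and 160.0 CPM in Tg libraries, against 171, 188, 153 and 665 CPM in NTg libraries. The high libraries were NTg replicate 4 and Tg replicate 2, the same 2 libraries that had the highest ribosomal RNA, and the other 16 transfer RNA synthetases summed to 292 to 306 CPM in Tg libraries and 295 to 298 CPM in NTg libraries. The 5 red blood cell markers summed to 3001, 489, 731 and 448 CPM in Tg libraries, against 1684, 1282, 1875 and 3269 CPM in NTg libraries, and the 5 cerebellar markers to 924, 729, 704 and 854 CPM in Tg libraries, against 501, 422, 557 and 1038 CPM in NTg libraries. NTg replicate 4 was the highest library for both sums. The next highest for both was Tg replicate 1. As a share of the library total, Tg replicate 1 was also next for transfer RNA, at 0.0101% after 0.0114% in NTg replicate 4. For ribosomal RNA the next was Tg replicate 2, at 0.487%, and for messengers NTg replicate 3, at 6.82%. Markers of microglia in NTg replicate 4 summed to 273 CPM, the lowest of all, and neuron markers to 6291 CPM, within the range of the others. The part of any of these in the ribosomal, transfer or messenger RNA counts was not tested.

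**Figure D4:**
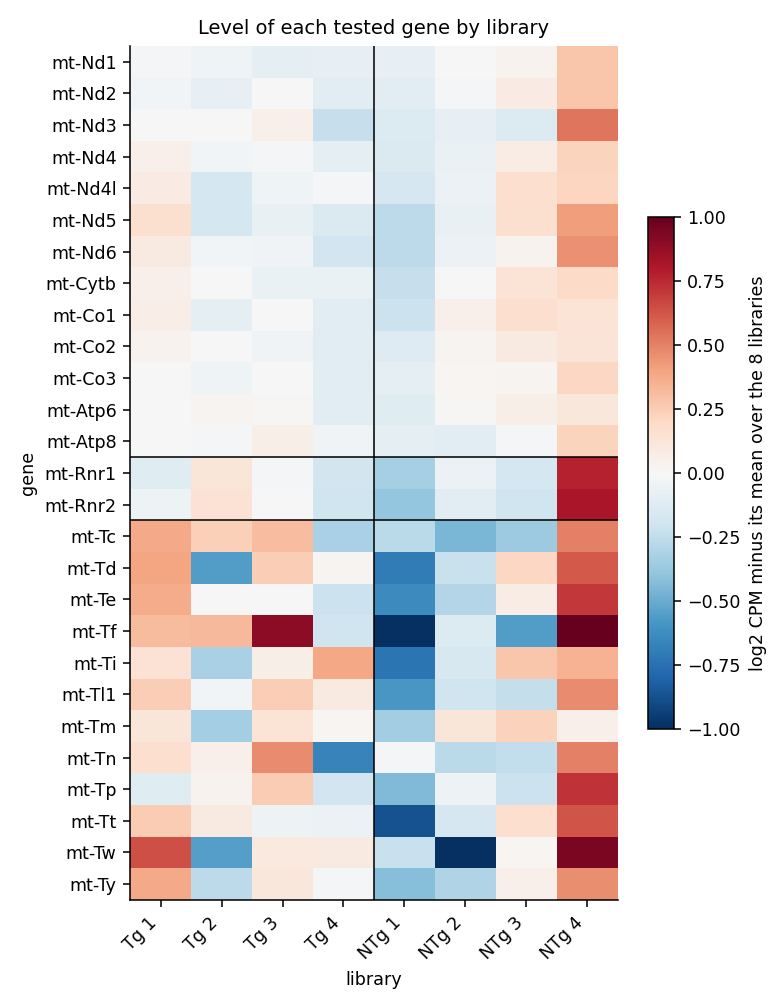
Log2 CPM of each of the 27 tested genes minus its mean over the 8 libraries, with Tg libraries left of NTg libraries, rows in blocks of messenger, ribosomal and transfer RNA, and colours that saturate at 1 in either direction. NTg replicate 4 is high in nearly every row and NTg replicate 1 is low in most, while no row separates the 4 Tg from the 4 NTg libraries.

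Transfer RNA genes are shorter than a usual sequencing fragment and their mature products lack a poly(A) tail, so their counts cannot be read as levels of mature transfer RNA. The 5 with the most counts, and mt-Ta, the alanine transfer RNA with 0 counts in every library, are shown with the anticodon in capitals (GENCODE M21, build GRCm38, 5′ to 3′ on the strand that encodes them), since they cover the whole range of levels. mt-Te lies at chrM:14071-14139, minus strand, mt-Tm at chrM:3845-3913, plus strand, mt-Tc at chrM:5192-5257, minus strand, mt-Ty at chrM:5260-5326, minus strand, mt-Tp at chrM:15356-15422, minus strand and mt-Ta at chrM:5018-5086, minus strand.
mt-Te: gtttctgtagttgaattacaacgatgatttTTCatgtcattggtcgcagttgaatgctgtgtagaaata
mt-Tm: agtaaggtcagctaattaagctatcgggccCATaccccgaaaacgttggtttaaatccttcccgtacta
mt-Tc: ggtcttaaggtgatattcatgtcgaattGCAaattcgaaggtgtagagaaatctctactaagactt
mt-Ty: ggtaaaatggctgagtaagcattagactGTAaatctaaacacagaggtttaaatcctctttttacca
mt-Tp: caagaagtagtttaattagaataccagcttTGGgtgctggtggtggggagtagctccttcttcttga
mt-Ta: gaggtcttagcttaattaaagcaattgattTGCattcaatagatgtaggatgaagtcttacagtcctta

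mt-Te, the glutamate transfer RNA, had 36.9, 28.6, 28.5 and 24.6 CPM in Tg libraries, against 18.3, 23.2, 30.0 and 46.5 CPM in NTg libraries. Its log2 fold change was 0.00917 (SE 0.25). NTg libraries were both the lowest and the highest. mt-Tm, the methionine transfer RNA, had 16.6, 12.1, 16.8 and 15.5 CPM in Tg libraries, against 12.0, 16.6, 17.9 and 15.8 CPM in NTg libraries, with a log2 fold change of -0.03 (SE 0.14). mt-Tc, the cysteine transfer RNA, had 18.1, 16.4, 17.2 and 11.1 CPM in Tg libraries, against 11.6, 10.1, 10.8 and 19.8 CPM in NTg libraries. Here 3 Tg libraries and NTg replicate 4 were high, while Tg replicate 4 lay with the other 3 NTg libraries, and the log2 fold change was 0.27 (SE 0.22) with an adjusted p of 0.902. mt-Ty, the tyrosine transfer RNA, had 15.9, 10.1, 13.1 and 12.1 CPM in Tg libraries, against 9.04, 9.86, 12.6 and 16.8 CPM in NTg libraries, with a log2 fold change of 0.09 (SE 0.20).

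Below these came mt-Tp for proline, with 4.74, 5.28, 6.14 and 4.51 CPM in Tg libraries, against 3.80, 4.95, 4.42 and 8.50 CPM in NTg libraries. Its log2 fold change was -0.07 (SE 0.23), 1 of 2 negative values among the tested transfer RNAs, the other being that of mt-Tm. mt-Tn, for asparagine, had 1.87, 1.73, 2.30 and 1.05 CPM in Tg libraries, against 1.65, 1.38, 1.40 and 2.36 CPM in NTg libraries. mt-Tt, for threonine, had 1.66, 1.48, 1.34 and 1.34 CPM in Tg libraries, against 0.759, 1.24, 1.56 and 2.15 CPM in NTg libraries. mt-Ti, for isoleucine, had 1.39, 1.00, 1.31 and 1.64 CPM in Tg libraries, against 0.759, 1.13, 1.53 and 1.60 CPM in NTg libraries. The Tg and NTg ranges overlapped in all 3 of these genes, with log2 fold changes of 0.03, 0.03 and 0.09.

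The other 4 tested transfer RNAs, mt-Td, mt-Tl1, mt-Tw and mt-Tf, held 362, 206, 100 and 86 counts over all 8 libraries, and their log2 fold changes were 0.02 (SE 0.30), 0.23 (SE 0.24), 0.05 (SE 0.42) and 0.42 (SE 0.49). For mt-Tf the 95% interval ran from -0.67 to 1.51. Of the 12 tested transfer RNAs, 10 had a positive and 2 a negative log2 fold change, with a median of 0.04, the opposite sign from the messengers, and 0 were called. NTg replicate 4 was highest for 10 of the 12 and NTg replicate 1 lowest for 9. Without NTg replicate 4, 11 of the 12 were positive, with a median of 0.29. In that edgeR fit mt-Tc and mt-Tf had unadjusted p of 0.00784 and 0.0409, with adjusted p of 0.322 and 0.510. They were 2 of 27 members under 0.05, where 2042 of all 21971 tested genes passed. Without Tg replicate 1 or NTg replicate 1, 4 were positive and 8 negative, with medians of -0.03 and -0.06. Without NTg replicate 2, 6 were positive and 6 negative (median -0.01). Without any 1 of the remaining libraries, 8 to 11 were positive. The log2 ratio of transfer RNA to messenger counts was -9.54 ± 0.13 in Tg libraries and -9.70 ± 0.27 in NTg libraries (SD, n = 4 each; exact permutation p = 0.314). Without NTg replicate 4 the difference was 0.29, with an exact permutation p of 0.0571, the smallest this design allows.

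The 10 transfer RNAs that were not tested held few counts. mt-Tr had 19 counts over all libraries, mt-Tg had 8, mt-Tk had 7, mt-Th had 5, mt-Tv and mt-Ts1 had 4 each, mt-Ts2 had 3, mt-Tl2 had 2, mt-Tq had 1 and mt-Ta had 0. No difference between genotypes was detectable for them at this depth. Counts were concentrated in few genes, since mt-Te, mt-Tm, mt-Tc and mt-Ty together held 86.3% of all transfer RNA counts. The 8 transfer RNA genes on the minority strand held 76.2% of transfer RNA counts, and 5 of these 8 were tested against 7 of the 14 on the majority strand. As the libraries do not keep strand, reads of a minority-strand transfer RNA and of the majority-strand precursor running across the same bases cannot be told apart.

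**Figure D5:**
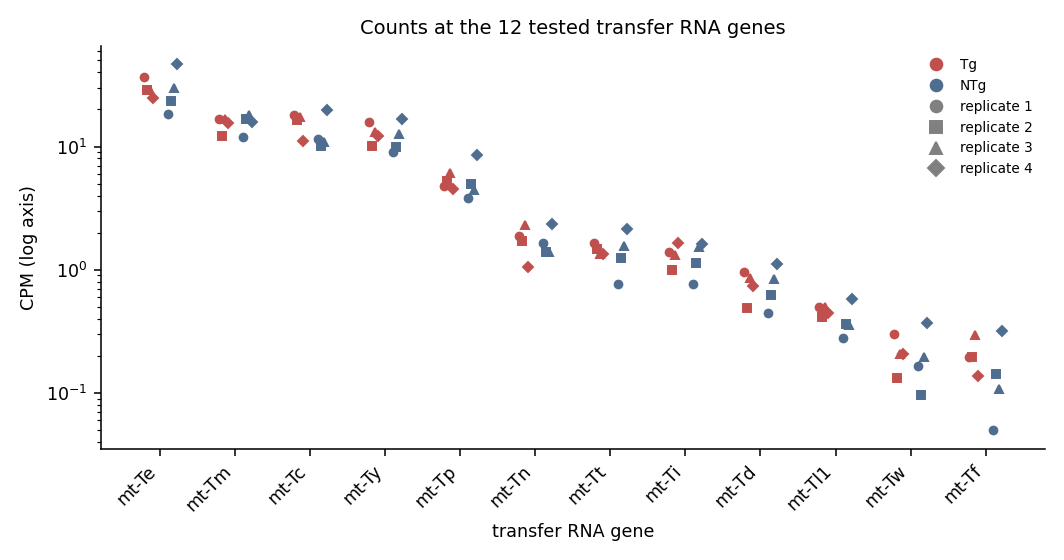
CPM (log axis) of the 12 tested transfer RNA genes in order of mean level, with Tg libraries in red left of NTg libraries in blue and a symbol for each replicate number. Levels run from 18.3 to 46.5 CPM for mt-Te down to under 0.4 CPM for mt-Tf, and NTg replicate 4 is the highest library for 10 of the 12.

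Among the nuclear genes that work with the mitochondrial genome, none of the lists examined held a gene called by edgeR, and DESeq2 also called 0 of them. At an unadjusted edgeR p under 0.05 there were 2 mitochondrial ribosomal proteins, 2 regulators of biogenesis, 1 complex I subunit and 1 stress response gene. These 6 of 261 tested genes are 2.30%, a lower share than the 7.36% of all tested genes. The Tg and NTg libraries did not overlap for 5 of the 261, or 1.92%, against 4.2% of all tested genes, and these were Ndufb9, Uqcr10, Tefm, Grsf1 and Ppargc1a. Nuclear subunits of complex I, 37 tested, had a median log2 fold change of -0.03, with 6 positive and 31 negative and 0 called. Ndufb9, an accessory subunit, averaged 58.8 ± 2.05 CPM in Tg libraries and 64.7 ± 3.14 CPM in NTg libraries with an unadjusted edgeR p of 0.0187 (adjusted p = 0.487), and Ndufs5 had a log2 fold change of -0.08. The 4 subunits of complex II, all nuclear, had a median of -0.06, from -0.07 to -0.05, with Sdhc at -0.06, Sdhb at -0.07 and Sdha, the most abundant, at -0.05. The 9 of complex III had a median of -0.02, with Uqcr10 at -0.05 and Uqcrc2 at -0.07. The 11 of complex IV had a median of -0.04, with Cox7b at -0.07, Cox5a at -0.08 and Cox4i1, the most abundant, at 0.00217. Of 17 listed ATP synthase subunits 15 were matched, and they had a median of -0.05, with Atp5g3 at -0.08, Atp5f1 at -0.10 and the catalytic subunit Atp5b at -0.05.

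The log2 ratio of mitochondrial to nuclear messengers was 2.77 ± 0.07 in Tg libraries and 2.83 ± 0.16 in NTg libraries for complex I (SD, n = 4 each; exact permutation p = 0.60). It was 2.43 ± 0.10 in Tg libraries and 2.44 ± 0.15 in NTg libraries for complex III (exact permutation p = 0.857). Complex IV had the highest ratio, 4.12 ± 0.08 in Tg libraries and 4.16 ± 0.12 in NTg libraries (exact permutation p = 0.543), and the ATP synthase the lowest, 0.76 ± 0.08 in Tg libraries and 0.73 ± 0.07 in NTg libraries (exact permutation p = 0.60). The groups overlapped in all of these. The ratios use summed counts with no correction for the number or length of the genes, so they do not rank the complexes by level. Reads shared with nuclear copies may also enter the mitochondrial counts.

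Factors that copy mitochondrial DNA and transcribe and process its RNA had no member called by edgeR. The 22 genes of mitochondrial DNA transcription and maintenance split evenly, 11 positive and 11 negative, with a median of -0.01, and included Polg, the DNA polymerase, at -0.04, the elongation factor Tefm at -0.15 and Primpol at 0.18. Of the 27 tested genes of RNA processing and decay, 21 were positive, with a median of 0.03. Mtpap, the poly(A) polymerase, averaged 20.5 ± 1.81 CPM in Tg libraries and 18.8 ± 1.14 CPM in NTg libraries, a log2 fold change of 0.13 with an edgeR adjusted p of 0.804. Grsf1, an RNA granule protein and the most abundant of the list, averaged 99.6 ± 2.99 CPM in Tg libraries and 105 ± 2.42 CPM in NTg libraries (log2 fold change -0.08, edgeR adjusted p = 0.752).

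Protein synthesis in mitochondria was represented by 77 tested ribosomal proteins, with a median of 0.01 and 46 positive, 17 transfer RNA synthetases with a median of 0.02, and 14 translation factors with a median of 0.01. Mrpl35 averaged 25.7 ± 3.10 CPM in Tg libraries and 20.2 ± 2.85 CPM in NTg libraries (log2 fold change 0.35, edgeR adjusted p = 0.362), Mrps6 had a log2 fold change of 0.22 and Mrpl3, the most abundant, 0.08. Among the synthetases Tars2 had 0.08 and Aars2 -0.12, and among the translation factors Gfm2 had 0.12, Gatb 0.11 and the most abundant, Gfm1, 0.00215.

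Of 13 regulators of mitochondrial biogenesis 0 were called, with a median of -0.02. Ppargc1a, the coactivator that drives expression of nuclear respiratory genes, averaged 60.9 ± 0.761 CPM in Tg libraries and 66.5 ± 2.23 CPM in NTg libraries (SD, n = 4 each). Its log2 fold change was -0.13 (SE 0.04) and its edgeR p of 0.0109 became 0.382 after adjustment. Esrrg, a nuclear receptor that acts with it, had a log2 fold change of -0.22 with an edgeR p of 0.0489 (adjusted p = 0.675), and Yy1, the most abundant of the list, had -0.00231. The 15 tested genes of the mitochondrial stress response had a median of 0.0049. Phgdh, of serine synthesis, had -0.17 (edgeR adjusted p = 0.526), Atf5 had 0.27, and the chaperone Hspa9, the most abundant, had 0.00489.

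Summed levels of cell type markers were not the same in both genotypes, though edgeR called 0 of the markers listed. DESeq2 called 4 microglial and 2 astrocyte markers higher in Tg, and 3 choroid plexus markers and 1 endothelial marker lower, where 0.87% of all genes were called by DESeq2 in either direction. All 7 microglial markers had an unadjusted edgeR p under 0.05 with positive log2 fold changes, at a median of 0.62, where 7.36% of all tested genes passed in either direction, and summed to 359 to 568 CPM in Tg libraries and 273 to 352 CPM in NTg libraries. The 6 astrocyte markers had a median of 0.09 and summed to 4405 to 6186 CPM in Tg libraries and 4019.7 to 4857 CPM in NTg libraries. They included Slc1a2, the most abundant, with a log2 fold change of -0.15, and Gfap at 1534 ± 657 CPM in Tg libraries and 431 ± 31.6 CPM in NTg libraries (log2 fold change 1.83, edgeR adjusted p = 0.107). The 6 choroid plexus markers summed to 307 to 570.5 CPM in Tg libraries and 597 to 912 CPM in NTg libraries, led by Ttr with -0.96, and the 6 endothelial markers had a median of -0.31. Neuron markers summed to 5643 to 6362 CPM in Tg libraries and 6129 to 6482 CPM in NTg libraries with a median of -0.02, and oligodendrocyte markers to 6515 to 7981 CPM in Tg libraries and 7731 to 9558 CPM in NTg libraries with a median of -0.15. The tissue label was forebrain, and neuronal markers were high in every library, but markers of cerebellum were also present in all 8. The part of cell composition in the mitochondrial values was not tested.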

How the data were processed

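RNA-seq was measured in 8 libraries, 4 Tg and 4 NTg. The file that the authors deposited holds unnormalized counts for each Ensembl gene. STAR, DESeq2 and GRCm39 are named in the submitters' processing notes. Which tool counted reads, with which annotation and versions, and how reads that fit several loci were treated, is not given in the sources used here. All libraries share 1 value of the batch label, so no batch split was possible. The members, lists and named-gene rule (all messengers, ribosomal RNAs and transfer RNAs at a mean of at least 1 CPM; for each other list the 2 genes with the smallest p and the most abundant) were chosen with earlier results of these data known. One gene that the rule names is not reported here.

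Genes passing edgeR's filterByExpr (minimum count 10, minimum total 15; 21588 genes) were scaled by TMM and tested with the quasi-likelihood F test, adjusted by Benjamini-Hochberg over all of them at 0.05. CPM values use TMM-scaled library sizes, and SE and 95% intervals come from the same fit. For shares and log2 ratios, which use counts as deposited, differences of means were tested by exact two-sided permutation. DESeq2, limma-voom, other scalings and filters, a replicate block and leaving out each library were alternatives. Sequences and lengths are from GENCODE M21 on GRCm38, not the authors' build, and were used for sequence, length and overlap alone. Software was R 4.3.3, edgeR 4.0.16, limma 3.58.1, DESeq2 1.42.0, scipy 1.17.1 and blastn 2.17.0. The fits were tested on simulated data.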

Additional observations from a re-analysis of the deposited data

Results flagged for a closer look

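Among 80 groups of 4 values checked (27 tested genes and 13 shares and ratios in each genotype), 5 held a library set apart from the other 3 of its group by a gap large relative to the range, where chance gives about 1 in 20. All 5 were NTg replicate 4. It had 734 CPM of mt-Nd3, against 461 to 480.3 CPM in the other NTg libraries. It had 4920.4 CPM of mt-Rnr2, against 2132 to 2584 CPM in the others, and 19.8 CPM of mt-Tc, against 10.1 to 11.6 CPM. Its share of ribosomal RNA was 0.751%, against 0.341% to 0.411%, and its log2 ratio of mt-Nd6 to the other messengers was -6.13, against -6.49 to -6.46. No Tg library stood apart in this way.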

How the results depend on the processing

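None of the 18 alternatives called a member, nor did the reported fit, and the lowest adjusted p of a member in any alternative was 0.322, without NTg replicate 4. Signs were less stable than calls. When each library was left out in turn, the difference in share of the library total, in percentage points, ran from -0.573 to 0.0611 for all members, -0.493 to 0.00284 for messengers, -0.0797 to 0.0567 for ribosomal RNA and -0.000251 to 0.00158 for transfer RNA. The sign turned without NTg replicate 4 for all members, messengers and ribosomal RNA, and without Tg replicate 1 or NTg replicate 1 for transfer RNA. Differences in log2 ratio, Tg minus NTg, ran from -0.0507 to 0.0272 for complex I to complex IV messengers. They ran from -0.10 to 0.0147 for mitochondrial to nuclear messengers of complex I. For the same of complex III they ran from -0.0721 to 0.0423, and of the ATP synthase from -0.00308 to 0.0626. For mt-Nd6 to other messengers they ran from -0.0468 to 0.0714, and for ribosomal to messenger RNA from -0.10 to 0.20. Log2 fold changes ran from -0.18 to 0.0794 for mt-Nd3, -0.10 to 0.0256 for mt-Nd4, -0.20 to 0.054 for mt-Nd6, -0.13 to 0.00654 for mt-Cytb, -0.0768 to 0.00184 for mt-Atp6, -0.0391 to 0.077 for mt-Atp8, -0.29 to 0.14 for mt-Rnr1 and -0.27 to 0.21 for mt-Rnr2. Among transfer RNAs they ran from -0.17 to 0.27 for mt-Td, -0.16 to 0.32 for mt-Te, -0.0868 to 0.23 for mt-Ti, -0.14 to 0.0648 for mt-Tm, -0.13 to 0.23 for mt-Tn, -0.21 to 0.23 for mt-Tp, -0.18 to 0.30 for mt-Tt, -0.19 to 0.49 for mt-Tw and -0.0339 to 0.29 for mt-Ty. The other tested members kept their sign. Without mt-Atp8, mt-Atp6, mt-Nd4l and mt-Nd4, the difference in log2 ratio of ribosomal to messenger RNA, Tg minus NTg, was 0.00605. Messengers that overlap a member elsewhere, such as mt-Nd5 and mt-Nd6, were kept there. mt-Atp8 turned positive with limma-voom, at 0.00194, and with library totals and no factor, at 0.0217, a scaling that moved the median of all genes to 0.02. Replicate numbers gave no evidence of pairing, since the correlations of deviations were 0.07, -0.03, 0.16 and -0.009 for numbers 1 to 4. With the number as a replicate block, 1 gene was called overall against 3, 0 members were called, and mt-Atp8 had a log2 fold change of 0.00216. Leaving out the nuclear copies from the denominator of the shares, and the members together with the copies from the library sizes, were added after seeing the data and changed no sign of a share and no call of a member. Over all genes, 345 were called by DESeq2, 127 with no filter on low counts, 314 without Tg replicate 1, 16 without NTg replicate 1 and 9 without Tg replicate 2, against 3, and none of these was a member. Transfer RNA values are limited by depth, with 3567 to 6581 counts per library for all 22 together.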
